A study of Drosophila melanogaster with 2 samples.

Results

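The genes described here are 10 genes of Eiger and JNK signalling in Drosophila melanogaster, chosen by symbol: egr, grnd, wgn, wnd, Tak1, hep, bsk, puc, Jra and kay. They are 10 of the 13945 protein-coding genes on the chromosome arms of the Ensembl BDGP6 annotation, and all 10 symbols were found in it. Binding of p53 near them was read from chromatin immunoprecipitation sequencing (ChIP-seq) of whole mixed-sex embryos, aged 0 to 24 h. The embryos came from the strain p53-MiMIC-GFP, whose p53 gene carries an intronic eGFP exon and yields a tagged protein from its native locus. One label describes precipitation through GFP and another names p53 as the target. There were 2 biological replicates numbered 2 and 3. The labels name no irradiation or other treatment and no second genotype. Binding in the embryo as a whole is all that such chromatin can show, since the tissues that contributed to a peak are not separated.

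A region was assigned to a gene when its summit, the base of highest enrichment, lay in the gene body or within 2 kb of it. By that rule the 10 genes held 8 of the 2290 peaks of the final list, which the authors selected by the irreproducible discovery rate (IDR) and which is called the IDR list here. They held 71 of 26752 regions in the list from both replicates together (the pooled list), 46 of 30000 in replicate 2's own list and 77 of 30000 in replicate 3's own list. Each region carries the authors' signal value, a strength that can be compared within a list but not between lists, so ranks within each list (1 being the strongest) are given beside it. In the IDR list the signal value ran from 75.8 to 1970, with a median of 109. The pooled list has the same top value, and most of it is background. Only 3355 of its regions reached a deposited q-value of 0.01, the level used below.

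Eiger is the tumour necrosis factor (TNF) of flies, a membrane-bound ligand that can be shed from the cell and that acts through the receptors Grindelwald and Wengen. Downstream, kinases pass the signal from one to the next until Basket, the fly Jun N-terminal kinase (JNK), is activated and in turn acts on the transcription factors Jun and Fos. In fly tissues the pathway is known for closing the embryonic epidermis over the back, for killing or extruding damaged cells and for regenerative growth, and p53 is known to act both upstream and downstream of it after damage.

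An IDR summit lay in the window of 7 of the 10 genes, egr, wnd, Tak1, bsk, puc, Jra and kay, and in that of 23.9% of all protein-coding genes. The 3 without one were both receptor genes, grnd and wgn, and hep, the gene of the kinase that activates JNK. Long genes have wider windows, and these genes are long, with a median span of 9944 bp against 2166 bp for all protein-coding genes. Of the 5 that span under 10 kb, 4 had an IDR summit, beside 21.0% of all such genes, and of the 5 that span 10 kb or more, 3 had one, beside 41.2%. This division by span was chosen after seeing the data. The median of the strongest pooled signal value per gene was 92.8 over the 10 genes and 39.99 over all protein-coding genes. Within the shorter class these medians were 96.7 and 37.4, and within the longer class 88.97 and 61.95.

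The count depends on how close a peak must be. With a summit required within 500 bp of an annotated transcription start site, 4 of the 10 remained, egr, wnd, Tak1 and bsk, beside 13.3% of all genes. Where each summit counted only for the protein-coding gene with the nearest start site, 6 of 10 had one, beside 12.5% of all genes. Jra was the gene that dropped out. Starts of non-coding genes were not considered, and that of the non-coding gene lncRNA:CR44331 is closer to both puc summits than any puc start. Pooled regions at a q of 0.01 or less were found at 8 of 10, wgn being added, beside 31.5% of all genes. A pooled region of any strength was present at all 10, and at 80.9% of all genes, so that presence alone sets few genes apart.

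**Figure D1:**
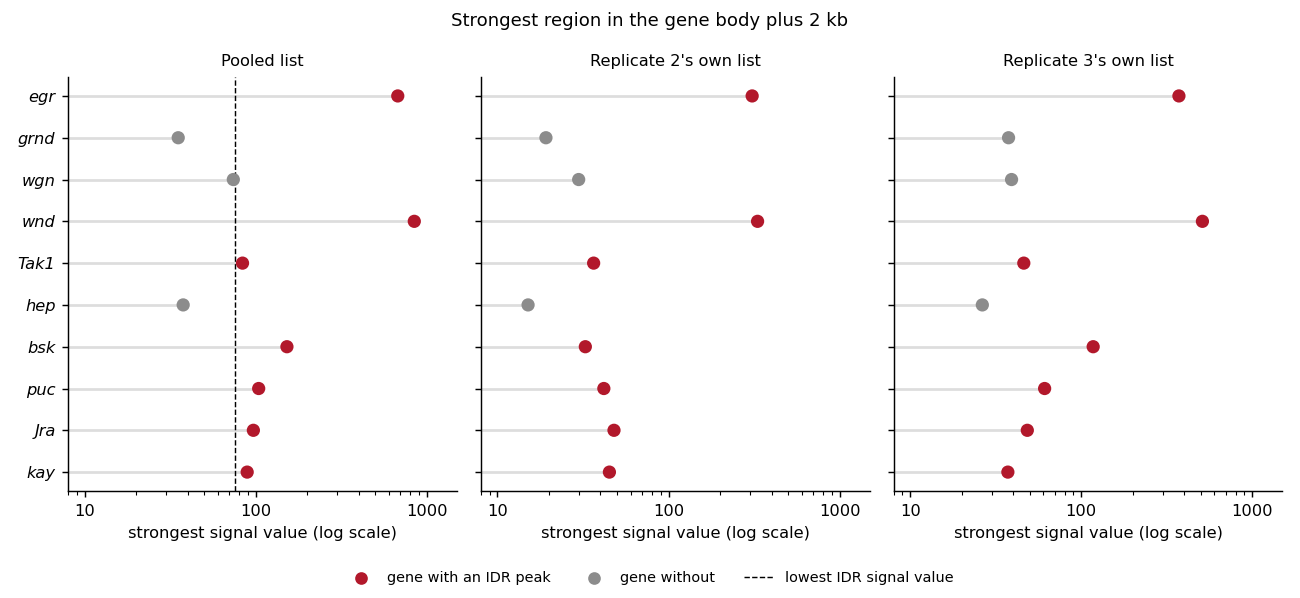
Strongest signal value (x axis, log scale) of a region in the gene body plus 2 kb, for each of the 10 genes (rows), in the pooled list and in both replicates' own lists; red points are the 7 genes with an IDR peak, grey points the other 3, and the dashed line is the lowest signal value of the IDR list, 75.8. The points for egr and wnd stand far to the right in all 3 panels, and wgn lies just left of the line at 73.8.

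The ligand gene egr (FBgn0033483, 2R:10078366-10084210, + strand) carried one of the strongest peaks of the whole list. Its IDR peak at 2R:10078170-10078572 had its summit in the 5′ UTR, 55 bp downstream of the only annotated start site, which both egr transcripts share. The signal value was 308 in replicate 2 (rank 9), 372 in replicate 3 (rank 21) and 675 in the pool (rank 15). Both replicates thus placed it among their strongest regions, with summits 7 and 19 bp from the pooled summit. Of all protein-coding genes, 20, egr included, had a pooled region at least as strong in their window (0.143%). The rest of the egr window held 6 pooled regions with signal values from 23.2 to 56.98, the strongest in introns, at ranks 3817 and 4386. None of those 6 reached a q of 0.01 in the pool. In replicate 3's own list, 1 region 1845 bp upstream of the start did (35.3, rank 4072, −log10 q of 2.15), and replicate 2 listed none there. The next start site of another gene, CG1371, lay 2776 bp from the summit.

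Both receptor genes were without an IDR peak, at different distances from the threshold. At wgn (FBgn0030941, X:18624042-18634908, − strand) the strongest pooled region lay 570 bp upstream of the start site, at X:18635280-18635675. Its signal value of 73.8 (rank 2415, −log10 q of 2.84) stood just under the 75.8 of the weakest IDR peak. The same region had a signal value of 29.8 in replicate 2 (rank 2566) and of 39.1 in replicate 3 (rank 3405), so it ranked outside the strongest 2290 regions of each replicate. A second region over the wgn 5′ UTR, 65 bp from the start, reached 54.6 in the pool (rank 4125). There the replicates differed, with a signal value of 14.2 in replicate 2 (rank 19486) and of 38.7 in replicate 3 (rank 3459).

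The other receptor gene, grnd (FBgn0032682, 2L:18485417-18488021, + strand), held 4 weak pooled regions with signal values from 30.3 to 35.2. None lay within 500 bp of its start site, and all 4 had summits inside the neighbouring genes CG10283 or kon. Its strongest region in replicate 2 had a signal value of 19.2 (rank 8399) and lay 106 bp upstream of that start. In replicate 3 the strongest was instead 1042 bp upstream, with a signal value of 37.6 (rank 3669, −log10 q of 2.37). The strongest region of each replicate was thus at a different site. The strongest pooled region, beyond the 3′ end of grnd and inside kon, was listed in both, with 16.4 in replicate 2 (rank 13091) and 19.8 in replicate 3 (rank 13247). The pooled region that overlaps the replicate 3 region has its summit 56 bp from the start of the neighbouring gene CG10283.

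The strongest peak of the 10 genes was that of wnd (FBgn0036896, 3L:19624406-19635783, − strand). Wallenda, its product, is the fly dual leucine zipper kinase, which sits at the top of the JNK cascade and is known for signalling axon injury. The peak at 3L:19635787-19636110 spanned 324 bp, against a list median of 396 bp. The strongest peaks of aop, hiw, Atf3 and Mkk4, described below, were narrower still. Its summit lay 163 bp upstream of the most distal of 4 annotated start sites, that of wnd-RC, and inside no gene. The signal value was 331 in replicate 2 (rank 8), 511 in replicate 3 (rank 6) and 844 in the pool (rank 7). All 3 lists put the summit on the same base. Counting wnd, 12 protein-coding genes (0.0861%) had a pooled region at least as strong.

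The DNA under that summit is shown because this is the strongest binding in the set. The line gives 201 bases of the + strand of dm6, 3L:19635846-19636046, centred on the summit, and the capitals mark the stretch closest to a full p53 site (3L:19635922-19635941).

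wnd peak: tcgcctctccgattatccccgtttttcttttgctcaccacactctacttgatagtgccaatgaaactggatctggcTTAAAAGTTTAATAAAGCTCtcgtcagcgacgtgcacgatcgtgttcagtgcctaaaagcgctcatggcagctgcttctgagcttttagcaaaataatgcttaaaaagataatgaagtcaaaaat

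A full p53 site is a pair of half-sites of the p53 consensus with a spacer of 0 or 1 bp, and the marked stretch departs from it at 5 of 20 positions. A stretch that close or closer was present within 100 bp of the summit in 79.5% of all IDR peaks and 74.6% of the other pooled regions, so the marked bases do not set wnd apart. The same window held GAGAG, the GAGA factor word, in 2 places, 1 of them centred 5 bp from the summit. GAGAG was found, on either strand, in 25.5% of all IDR windows of this size and in 25.1% of the other pooled windows. It also held TTGCNNAA, a word of C/EBP-type factors, once, as did 17.6% of all IDR windows and 15.1% of the others.

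Away from its distal promoter, wnd held weaker regions, some listed in 1 replicate and some in both. At the internal start site of wnd-RD a pooled region with its summit 12 bp upstream had a signal value of 43.1 (rank 6573). Replicate 3 listed this region with a signal value of 36.8 (rank 3814, −log10 q of 2.39), and replicate 2 listed none that overlapped it. In a coding exon 3545 bp downstream of the same start both replicates listed a region, with summits 2 and 9 bp from the pooled summit, and a signal value of 27.3 in replicate 2 (rank 3123) and of 19.5 in replicate 3 (rank 13741).

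Tak1, hep and bsk encode the other kinases of the set. Tak1 (FBgn0026323, X:20515908-20524928, − strand) encodes a kinase that also serves the immune deficiency pathway. Its IDR peak at X:20524884-20525279 was near the threshold, with the summit 154 bp upstream of the start of Tak1-RA. The signal value was 36.5 in replicate 2 (rank 1697), 46.1 in replicate 3 (rank 2470) and 83.6 in the pool (rank 1909). The replicate 2 summit was displaced by 96 bp from the pooled one, and that of replicate 3 by 7 bp. No pooled region lay within 500 bp of the internal start of Tak1-RB.

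At bsk (FBgn0000229, 2L:10247502-10250501, − strand), the JNK gene itself, the replicates placed a peak at the same site but ranked it far apart. The IDR peak at 2L:10249666-10250061 lay in an intron of the longest transcript and 122 bp upstream of the start of bsk-RF. Its signal value was 32.6 in replicate 2 (rank 2111, −log10 q of 1.72), 117 in replicate 3 (rank 306, −log10 q of 3.67) and 152 in the pool (rank 546). The summits of both replicates lay within 8 bp of the pooled summit. The better rank was that of replicate 3. At the outermost start, that of bsk-RB, a pooled region 179 bp upstream reached only 41.3 (rank 7149), and its summit was closer, at 57 bp, to the start of the divergent neighbour CG31717.

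The gene of the kinase that phosphorylates Basket, hep (FBgn0010303, X:13079205-13090434, − strand), had the weakest signal of the kinases among the 10 genes. Its 5 pooled regions had signal values from 24.03 to 37.6 and lay in introns and coding exons. None lay within 500 bp of the single start site that its 7 transcripts share, and none reached a q of 0.01. Replicate 3's own list held a weak region 76 bp downstream of that start (17.1, rank 18023), and replicate 2's held none within 500 bp. The strongest region was in different places in both replicates, 2180 bp downstream of the start in replicate 2 (signal value 15.1, rank 16550) and 7362 bp downstream in replicate 3 (26.4, rank 7157). Both replicates listed the strongest pooled region, 3057 bp downstream of the start, with 12.8 in replicate 2 and 20.6 in replicate 3. A pooled region at least as strong as the best at hep was found at 53.6% of protein-coding genes.

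**Figure D2:**
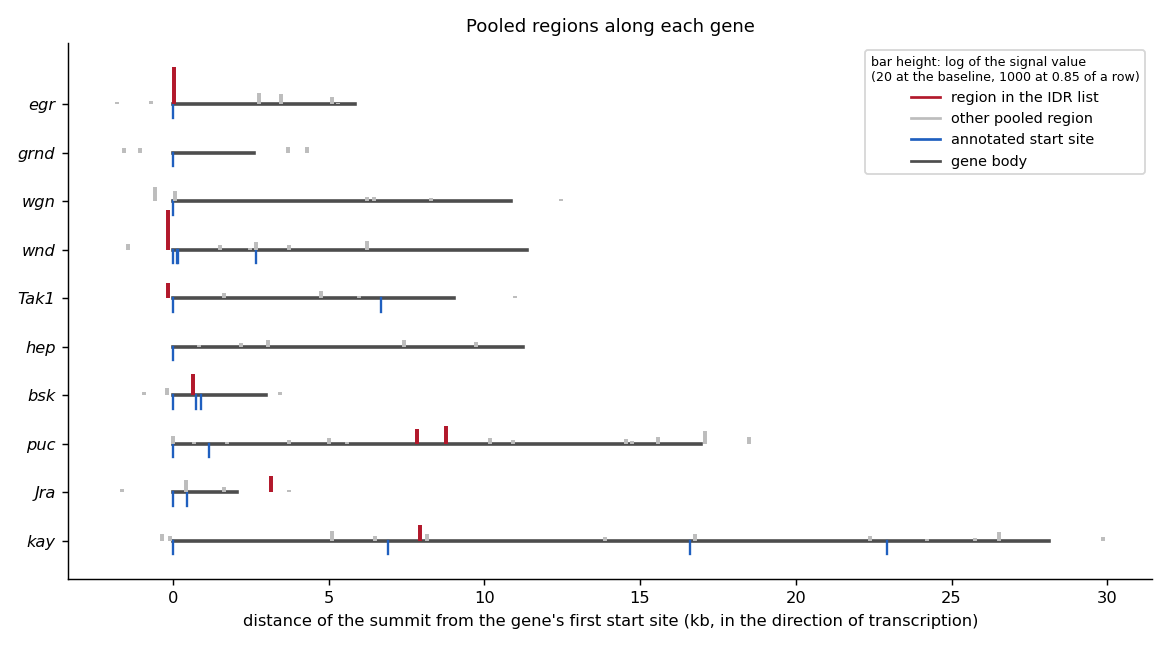
Pooled regions along each of the 10 genes, placed by the distance of the summit from the gene's first start site (x axis, kb, in the direction of transcription); bar height is the logarithm of the signal value, red bars are regions in the IDR list and grey bars other pooled regions, blue ticks are annotated start sites and dark lines gene bodies. The red bars of egr, wnd, Tak1 and bsk stand within 500 bp of a start site, those of puc lie 6672 and 7625 bp past its second start site, and that of Jra lies beyond its 3′ end.

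puc encodes the phosphatase that switches Basket off. It is itself induced by JNK, which makes it a negative feedback gene and the usual reporter of the pathway. puc (FBgn0243512, 3R:8105332-8122294, + strand) was the only one of the 10 genes with a pair of IDR peaks. Both lay in an intron and far from its start sites, with summits 6672 and 7625 bp downstream of the start of puc-RB. The stronger, at 3R:8113915-8114310, had a signal value of 41.9 in replicate 2 (rank 1303), 61.1 in replicate 3 (rank 1384) and 104 in the pool (rank 1250). The weaker, at 3R:8112962-8113357, had a signal value of 27.8 in replicate 2 (rank 3000, −log10 q of 1.12), 49.8 in replicate 3 (rank 2128) and 81.3 in the pool (rank 2003). Summits in both replicates were at most 1 bp from the pooled summit in each peak. A non-coding gene on the opposite strand, lncRNA:CR44331, spans 8112699-8114003 and so includes the weaker summit (8113160), but not the stronger (8114113). It starts at 8114003, and the stronger summit lies just upstream of that start. Both summits are closer to it than to any puc start.

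Both puc sequences are shown because the stronger peak holds the Jun/Fos word and the weaker a p53 half-site, each more than 100 bases from the summit. Each line runs from 100 bases before the summit to the end of the peak on the + strand of dm6. The first is 3R:8114013-8114310, and its capitals mark TGANTCA, the Jun/Fos word (8114296-8114302). The second is 3R:8113060-8113357, and its capitals mark a p53 half-site (8113320-8113329).

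puc stronger peak: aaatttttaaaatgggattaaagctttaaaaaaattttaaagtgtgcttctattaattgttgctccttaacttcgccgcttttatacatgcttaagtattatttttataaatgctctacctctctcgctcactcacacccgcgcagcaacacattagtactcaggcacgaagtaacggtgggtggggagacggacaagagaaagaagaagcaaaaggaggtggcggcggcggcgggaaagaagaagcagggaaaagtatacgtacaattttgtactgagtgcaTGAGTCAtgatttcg

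puc weaker peak: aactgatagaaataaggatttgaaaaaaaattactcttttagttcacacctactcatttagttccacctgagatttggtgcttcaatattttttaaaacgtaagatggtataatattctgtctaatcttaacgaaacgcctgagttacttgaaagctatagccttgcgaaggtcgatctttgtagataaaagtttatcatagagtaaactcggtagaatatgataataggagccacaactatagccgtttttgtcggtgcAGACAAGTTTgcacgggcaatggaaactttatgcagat

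In the stronger peak the Jun/Fos word was centred 186 bp from the summit, near the edge of the peak, and it was the only match among the 8 peaks of the 10 genes. TGANTCA occurred in 7.38% of all IDR peaks over their whole width. GAGAG occurred in 2 overlapping places, centred 21 and 23 bp from that summit. The half-site of the weaker peak also lay outside the 100 bp window, and 7.55% of all IDR peaks held a half-site somewhere in their width. Over the whole width of the 8 peaks, GAGAG was in 5 (62.5%, against 42.2% of all IDR peaks) and TTGCNNAA in 3 (37.5%, against 30.4%). A match shows only that the letters are there.

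The puc promoters themselves carried little signal. The region over the start of puc-RA had a signal value of 41.5 in the pool (rank 7071) and of 32.4 in replicate 3 (rank 4791), and replicate 2 listed none there. Near the start of puc-RB the pooled region had only 24.5 (rank 23901). Beyond the 3′ end a stronger pooled region, with a signal value of 68.6 (rank 2761, −log10 q of 2.46), lay 316 bp from the start of CG7878. A weak intronic region of puc (signal value 34.2, rank 11097) held the closest p53 match among the 71 regions, and is shown for that reason. Matches this close were in 1 of the 63 weaker regions (1.59%), against 0.744% of all pooled regions outside the IDR list, and with at most 3 mismatches the shares were 1.59% and 5.81%. The match departs from a full site at 2 of 20 positions, with a spacer of 1 bp, at 3R:8110342-8110362.

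puc intronic match: AAAGAAGTTCCAGGGTAGTTT

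kay encodes Fos, the partner of Jun in the AP-1 dimer. kay (FBgn0001297, 3R:29765995-29794113, + strand) is the longest of the 10 genes, at 28119 bp, with 4 start sites. Its IDR peak at 3R:29773719-29774114 was intronic, 1025 bp downstream of the start that kay-RA and kay-RG share. The signal value was 45.1 in replicate 2 (rank 1107), 37.2 in replicate 3 (rank 3730) and 88.97 in the pool (rank 1691). This is the opposite order to bsk, with the better rank in replicate 2. The summits differed as well, by 82 bp from the pooled one in replicate 2 and by 14 bp in replicate 3. Within 500 bp of the kay start sites, 4 pooled regions were found, and the strongest had a signal value of 39.8 (rank 7735).

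Jra encodes Jun. Jra (FBgn0001291, 2R:10096480-10098556, + strand) counts as a gene with an IDR peak only through the 2 kb margin. The peak at 2R:10099446-10099841 lay 2716 bp from the nearest Jra start and 33 bp from the start of 14-3-3zeta. This peak had its summit inside no gene, between the starts of RpLP0-like and 14-3-3zeta. Its signal value was 47.98 in replicate 2 (rank 973), 48.4 in replicate 3 (rank 2276) and 96.7 in the pool (rank 1443). It was lost under a margin of 1 kb. At Jra's own promoter a pooled region 14 bp upstream of the start of Jra-RA and Jra-RC had a signal value of 63.2 (rank 3195, −log10 q of 2.08). That region was not shared by the replicates to the same degree, at 13.99 in replicate 2 (rank 20221) and 42.2 in replicate 3 (rank 2944). It held TGANTCA within 100 bp of its summit, as did 3.72% of the other pooled regions.

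The ranks in both replicates show how far each peak rests on 1 library. Of the 8 peaks, 5 (62.5%) were among the strongest 2290 regions of both replicates' own lists, as were 67.3% of all IDR peaks. A q of 0.01 or less in both lists was held by 6 of 8 (75.0%), and by 69.7% of all IDR peaks. The others were bsk and the weaker puc peak, which missed it in replicate 2. The ranks differed by more than 2-fold in 4 of 8, at egr, bsk, Jra and kay, and in 37.0% of all IDR peaks. Summits in both replicates lay within 10 bp of the pooled summit in 5 of 8, against 27.4% of all IDR peaks. With replicate 2's strongest 2290 regions alone, all 7 genes kept a region, beside 23.1% of all genes. With replicate 3's alone, 5 of 10 had one, beside 24.2% of all genes, and Tak1 and kay were lost.

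**Figure D3:**
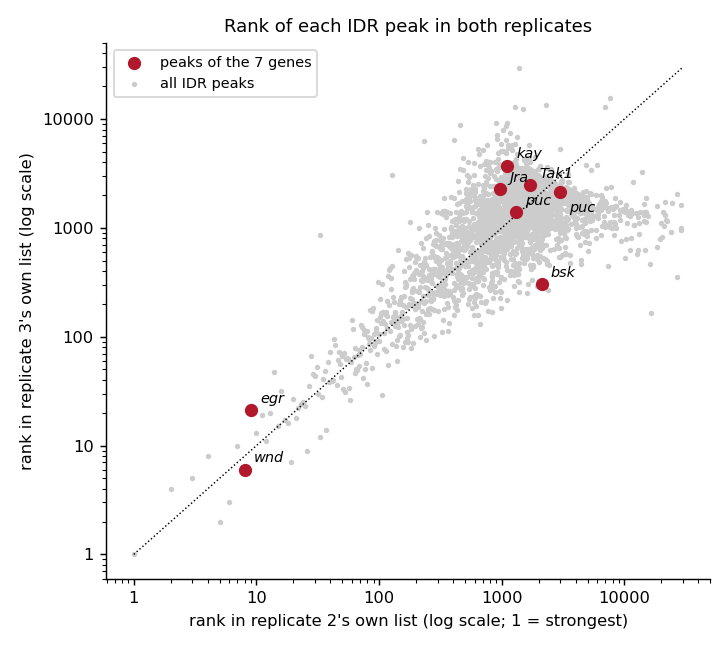
Rank of each IDR peak in replicate 2's own list (x axis) and in replicate 3's own list (y axis), both on log scales with 1 the strongest; red points are the 8 peaks of the 7 genes, grey points all IDR peaks found in both lists, and the dotted line is equal rank. The points for wnd and egr stand at the strong end of both lists, bsk lies below the line (rank 2111 against 306) and kay above it (1107 against 3730).

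Set among all protein-coding genes, wnd and egr were at the far end, with 0.0861% and 0.143% of genes at least as strong. bsk followed with 6.65%. The genes puc, Jra, kay and Tak1 stood between 14.3% and 20.5%, and wgn came next with 24.7%. The values of hep and grnd were 53.6% and 57.3%. The Jra value is that of the peak at 14-3-3zeta.

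**Figure D4:**
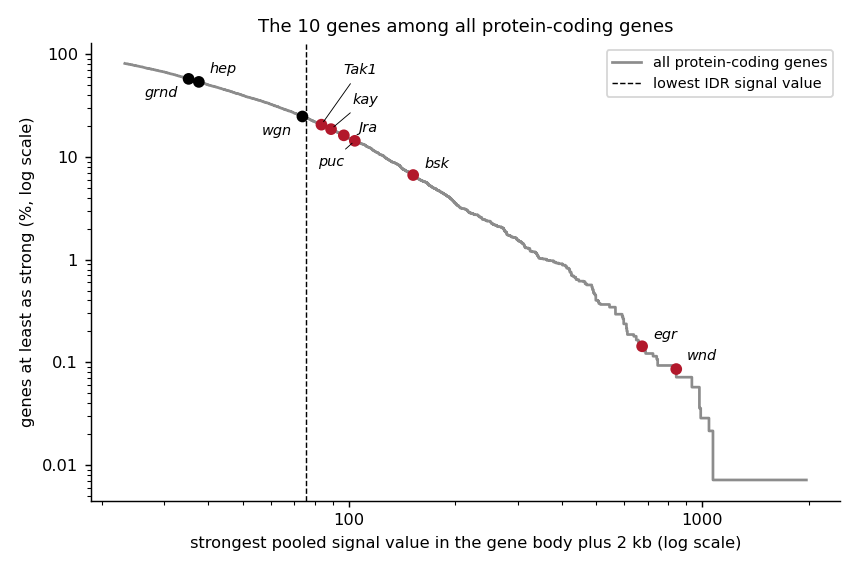
Percentage of all protein-coding genes (y axis, log scale) whose strongest pooled region in the gene body plus 2 kb has at least the signal value on the x axis (log scale); red points are the 7 genes with an IDR peak, black points the other 3, and the dashed line is the lowest IDR signal value. Genes with no pooled region count in the total but lie off the axis; wnd (844) and egr (675) stand apart from the next gene, bsk (152).

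Of the words searched, GAGAG was found in 2 of the 8 summit windows (25.0%, against 25.5% of all IDR windows) and TTGCNNAA in 1 of 8 (12.5%, against 17.6%). Within 100 bp of the summit none held a p53 half-site (4.54% of all IDR peaks did), and none held a full p53 site with at most 3 mismatches (7.21% of all IDR peaks did). The best stretches had 4 mismatches at egr and at the stronger puc peak, 5 at wnd, bsk, Jra and kay, and 6 at Tak1 and at the weaker puc peak. A stretch with at most 4 mismatches was thus present at 2 of 8, and at 32.2% of all IDR peaks. TGANTCA (Jun/Fos), TATCGATA (DREF, a factor of growth gene promoters), GGTCACAC (M1BP, known at promoters where polymerase pauses) and CAGGTAG (Zelda, the activator of the early embryonic genome) were also found in none of the 8 windows. They occurred in 3.76%, 6.51%, 4.72% and 1.09% of all IDR windows, shares at which 8 windows can show little. Among the 63 weaker regions of the 10 genes, 5 held a p53 half-site (7.94%, against 3.50% of the other pooled regions) and 5 held TGANTCA (7.94% against 3.72%), of which 3 were at puc, 1 at wnd and 1 at Jra. A full p53 site with at most 3 mismatches was in 1 of the 63 (1.59%, against 5.81%) and TTGCNNAA in 3 (4.76% against 15.1%), while GAGAG was in 15 (23.8% against 25.1%). CAGGTAG was in 3 of the 63 (4.76% against 1.39%), GGTCACAC in 2 (3.17% against 1.59%) and TATCGATA in 1 (1.59% against 1.63%). These are counts over few regions, in both directions, and were not tested.

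Other genes of the pathway were described from a list of 40, chosen for their role and not for their peaks. An IDR summit lay in the window of 16 of the 40 (40.0%), beside the 23.9% of all protein-coding genes. Long genes are frequent in this list too. Of the 24 that span under 10 kb, 7 had a summit, beside 21.0% of all such genes, and of the 16 that span 10 kb or more, 9 had one, beside 41.2%. In 12 of the 16 genes with an IDR summit the strongest peak had the gene's own start site as the nearest. Where each summit counted only for the gene with the nearest start site, 13 of the 40 had one, beside 12.5% of all genes. The median strongest pooled signal value was 55.4. Adaptors and upstream regulators had IDR peaks at 9 of 15, other kinases at 3 of 7, scaffolds at 0 of 3, nuclear regulators at 2 of 5 and outputs at 2 of 10. The differences between roles were not tested.

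Among the kinases, the peak of Mkk4, the other activator of Basket beside hep, stood 129 bp upstream of its start with a signal value of 379 (rank 75, and ranks 64 and 78 in replicates 2 and 3). At hep there was no IDR peak. Mekk1 (132, rank 744), a kinase that acts at the level of wnd, and Tab2 (87.8, rank 1739), the partner of Tak1, had intronic peaks. The ubiquitin ligase gene hiw, whose product degrades Wallenda, had 4 IDR peaks, but the strongest (401, rank 71) lay in an intron 43750 bp from the start of hiw and 4757 bp from that of the gene be.

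Further upstream, ben, a ubiquitin-conjugating enzyme gene (152, rank 542), Traf6, an adaptor gene (99.7, rank 1353), Src64B, a Src kinase gene (105, rank 1221), and Rho1, a small GTPase gene (178, rank 379), had peaks within 500 bp of their own start. The peak of Traf4, another adaptor gene, was intronic and weak (77.6, rank 2193). Those described for msn (144, rank 610), POSH (198, rank 292) and CYLD (111, rank 1105) lay closer to the start of RpL8, Ns2 and CG13138. Both msn and Src64B had 2 IDR peaks, of which only the stronger is given. Of the nuclear regulators, aop, which encodes the repressor Yan, had 6 IDR peaks, the strongest 11 bp from a start (438, rank 54), and Atf3, a bZIP factor gene, had 2, the stronger 263 bp from a start (386, rank 73). Among outputs, the peak of upd2, a cytokine gene, lay 3774 bp from its start, beyond the gene (96.4, rank 1453). That of dpp, a BMP ligand gene, was intronic, 5287 bp from a start (126, rank 840). No IDR summit lay in the windows of Ets21C, Mmp1, upd1, upd3, Ilp8, Gadd45, scaf or chic.

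**Figure D5:**
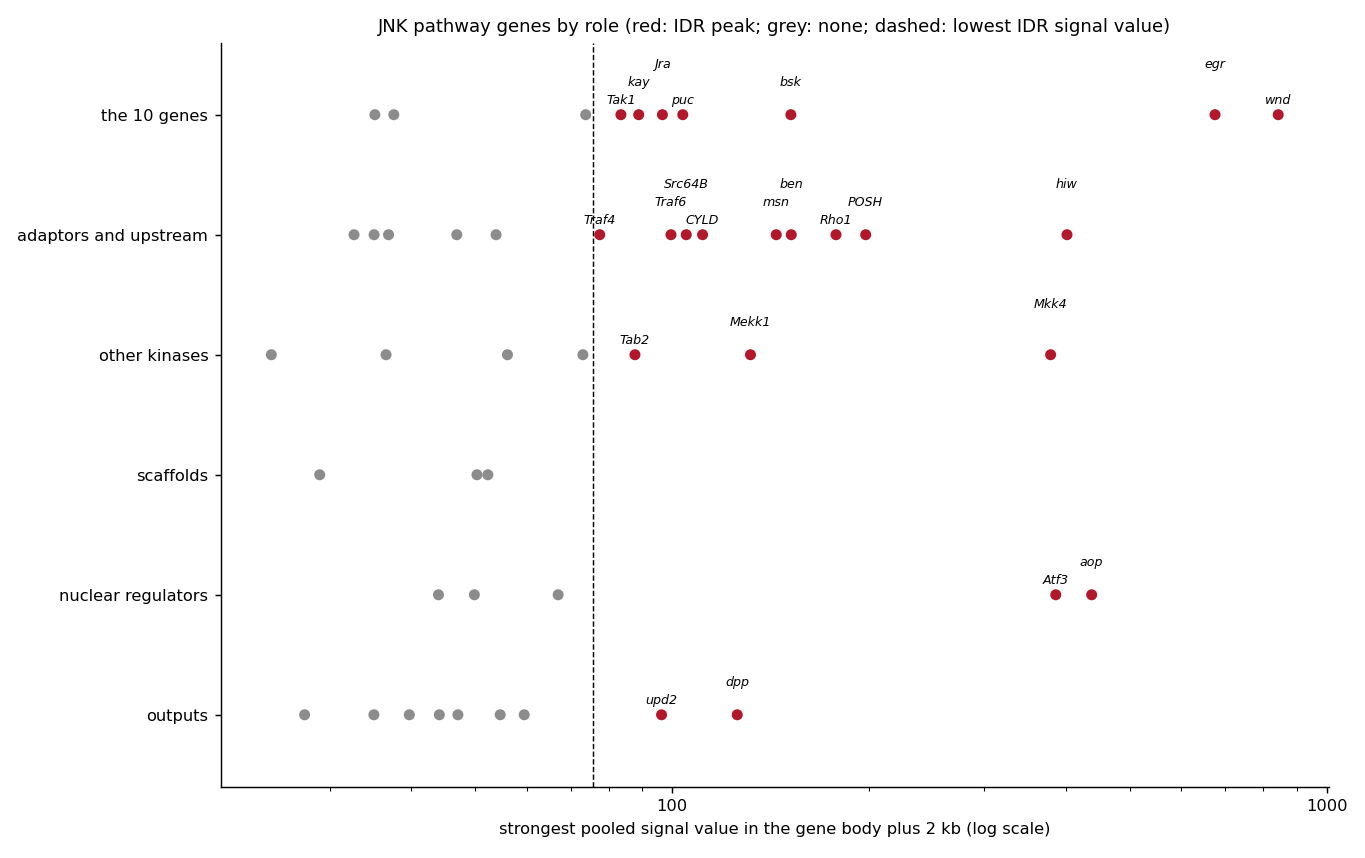
Strongest pooled signal value in the gene body plus 2 kb (x axis, log scale) for the 10 genes (top row) and the 40 other pathway genes by role (lower rows); red points have an IDR peak and are named, grey points have none, and the dashed line is the lowest IDR signal value. Rac2 and Ilp8 had no pooled region and are not drawn; aop (438), hiw (401), Atf3 (386) and Mkk4 (379) are the strongest of the 40, below wnd and egr.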

How the data were processed

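ChIP-seq of p53-eGFP was analysed from the peak lists of 2 biological replicates, which form 1 group. Per the labels, chromatin was sonicated to 200 to 800 bp. Files deposited with the data trace the pooled list to both replicates and show that they share a control, not analysed here. Which aligner, peak caller and IDR cut-off were used: not given in the sources used here. Replicate and pooled lists mix peaks with background. The deposited signal value is the authors' own, of unstated scaling, and the deposited −log10 q-value stands beside it. Read depth is unknown, so no interval is given.

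Coordinates are dm6, 1-based, set against Ensembl release 115 (BDGP6) and the Release 6 genome. Lists in dm3 were not used, as no coordinates were converted. A gene's window was its body plus 2 kb. Nearest start sites and nearest neighbours were sought among protein-coding genes only. Windows, nearest starts and words (both strands, 100 bp each side of the summit) were computed in Python 3.11.15 with pandas 2.3.3 and numpy 2.4.6, and tested on simulated regions. With 1 group and no second condition, no p-value was computed, and counts stand beside those of all 13945 protein-coding genes. Every one of the 10 genes and each neighbour nearest to an IDR summit is named, and of the 40 other genes each with an IDR summit; the outputs without one were named after their values were seen. The genes and lists were chosen with earlier results of these data known. Alternatives were other margins, lists, overlap rules, word windows and mismatch limits, and each replicate's own list.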

Additional observations from a re-analysis of the deposited data

How the results depend on the processing

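Counts are given here with the share of all protein-coding genes in parentheses. The count of 7 of the 10 genes with an IDR summit (23.9%) was 4 with the gene body alone (7.48%). It was 3 among the 1145 strongest IDR peaks (13.3%). With a summit within 500 bp of a start site, a setting chosen after seeing the data, it was 4 (13.3%). It was 7 with replicate 2's list alone (23.1%) and 5 with replicate 3's alone (24.2%). A margin of 1 kb gave 6 (19.8%), a margin of 5 kb gave 7 (33.8%) and any overlap gave 7 (24.6%). Pooled regions at a q of 0.01 gave 8 (31.5%), and the nearest start site only gave 6 (12.5%). The count of 16 of the 40 other pathway genes (23.9%) was 9 with the gene body alone (7.48%) and 9 within 500 bp of a start site (13.3%). It was 14 with replicate 2's list alone (23.1%) and 16 with replicate 3's alone (24.2%). Among the 1145 strongest IDR peaks it was 11 (13.3%), and by the nearest start site only 13 (12.5%). A margin of 1 kb gave 14 (19.8%), a margin of 5 kb gave 21 (33.8%) and any overlap gave 17 (24.6%). Pooled regions at a q of 0.01 gave 18 (31.5%). None of the 8 IDR summits of the 10 genes held a full p53 site with at most 3 mismatches within 100 bp. With at most 4 mismatches there were 2. No paired analysis was possible because there is 1 group. A region's strength rests on 2 libraries of unknown depth, and replicate 3 gave more regions at a q of 0.01 than replicate 2 (4186 and 1847).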
